A study of Rattus norvegicus with 8 samples.

Results

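The genes described here are 7 markers of lymphatic endothelium in RNA-seq profiles of the rat abdominal aorta: Prox1, Lyve1, Flt4, Pdpn, Mmrn1, Reln and Tbx1. They were taken by symbol, and all 7 were among the 18090 genes of the deposited table. The samples were abdominal aortas of wild-type rats (no transgene is named), all in 1 batch. In 4 of them the outside of the vessel was exposed for 5 min to filter paper soaked in 10% iron chloride (FeCl3), which damages the wall and makes a clot form, and in 4 controls the paper held 0.9% saline for 5 min. Strain, sex, age, the time from exposure to harvest and whether the tissue around the vessel was removed are not stated in the labels. The comparison addressed which transcripts differ between an aorta with FeCl3-induced thrombosis and its saline control. Values are FPKM, fragments mapped to a gene divided by its length and by the depth of the library.

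Lymphatic vessels drain fluid, lipid and immune cells from tissue, and around large arteries they run in the adventitia and in the fat outside it. Their endothelium is set apart from blood endothelium by the transcription factor Prox1, and its growth is driven by the ligand Vegfc acting on the receptor Flt4 (VEGFR-3). Most of the other markers are shared with other cells of an artery and its surroundings: Lyve1 with perivascular macrophages, Pdpn with mesothelium and fibroblasts, Mmrn1 with platelets, Reln with neural cells, and Tbx1 with muscle. Tbx1 is also in the brown adipocyte list used below.

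Promoter windows are shown as a description of the start sites, which differ in base composition. Whether they bear on the values of the genes in the libraries was not tested. Sequences of the 250 bases before the gene start were found for 6 of the 7 genes in RefSeq (build GRCr8, which is not the build of the deposited values) and were searched on both strands. The core letters bound by ETS factors were searched as AGGAAG and, in a second form with the same ending, as CGGAAG. Those bound by GATA factors were searched as AGATAA and, with a different first base, as TGATAA. Those bound by SOX factors were searched as AACAAT. The half-site of nuclear receptors was searched as AGGTCA. Matches are in capitals, written as on the strand of the gene, so CTTCCT is AGGAAG on the opposite strand. The windows with a match lie at chr1:174410978-174411227 (minus strand) for Lyve1, chr4:91233166-91233415 (plus strand) for Mmrn1, chr10:34414584-34414833 (plus strand) for Flt4 and chr5:160918960-160919209 (minus strand) for Pdpn.
Lyve1: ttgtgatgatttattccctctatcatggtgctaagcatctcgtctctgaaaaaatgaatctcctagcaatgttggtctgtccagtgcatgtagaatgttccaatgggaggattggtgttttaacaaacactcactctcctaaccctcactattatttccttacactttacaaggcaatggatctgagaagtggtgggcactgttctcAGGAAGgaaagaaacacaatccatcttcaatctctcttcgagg
Mmrn1: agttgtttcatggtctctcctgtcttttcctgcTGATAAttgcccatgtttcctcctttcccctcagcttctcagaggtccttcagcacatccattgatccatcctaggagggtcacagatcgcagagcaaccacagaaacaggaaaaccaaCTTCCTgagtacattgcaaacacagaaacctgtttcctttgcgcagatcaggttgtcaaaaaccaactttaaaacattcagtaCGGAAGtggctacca
Flt4: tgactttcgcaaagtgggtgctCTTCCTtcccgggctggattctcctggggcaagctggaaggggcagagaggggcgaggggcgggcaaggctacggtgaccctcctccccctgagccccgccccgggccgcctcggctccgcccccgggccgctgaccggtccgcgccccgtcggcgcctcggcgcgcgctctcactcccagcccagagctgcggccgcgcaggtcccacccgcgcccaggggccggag
Pdpn: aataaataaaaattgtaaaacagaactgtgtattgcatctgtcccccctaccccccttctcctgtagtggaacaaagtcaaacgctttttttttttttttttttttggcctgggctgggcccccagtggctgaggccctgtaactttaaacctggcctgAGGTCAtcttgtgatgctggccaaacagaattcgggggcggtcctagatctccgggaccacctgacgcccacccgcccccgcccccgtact
The Mmrn1 window held 1 GATA match at position -217 from the gene start and 2 ETS matches at -98 and -15, Lyve1 held 1 ETS match at -43, Flt4 1 ETS match at -228 and Pdpn 1 half-site at -91. Reln had none of these letters in its window, and Tbx1, which has 2 windows at different gene starts, had none in either. Of all 33469 windows in the table, 39.4% held the ETS letters, 16.9% the GATA letters, 10.3% the SOX letters and 14.1% the half-site, so such matches are common, and a match is a description of the letters and not a bound site. Base composition differed between the genes. Reln (80% G or C, 41 CpG) and Flt4 (76%, 28 CpG) lay in GC-rich windows, and Lyve1 (41.6%, 2 CpG) and Mmrn1 (45.6%, 3 CpG) in GC-poor ones, beside medians of 51.2% and 5 CpG over all windows. Pdpn (51.6%, 8 CpG) lay near the median GC share. The Tbx1 windows held 56.4% (8 CpG) and 68.4% (15 CpG).

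None of the 7 genes passed the limma test between the groups, and in all 7 the FeCl3 and saline values overlapped. Mean FPKM was higher after FeCl3 for Lyve1, Mmrn1 and Tbx1, and lower for Prox1, Flt4, Pdpn and Reln. Libraries of the same group differed widely: saline replicate 1 had the lowest value of 5 of the genes, and Mmrn1 ran from 0.0139 to 10.1 FPKM within the saline group alone. A low level in a bulk sample can come from fewer cells of a type or from less RNA per cell, which cannot be told apart. The FPKM plot by library shows this spread for each gene.

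**Figure D1:**
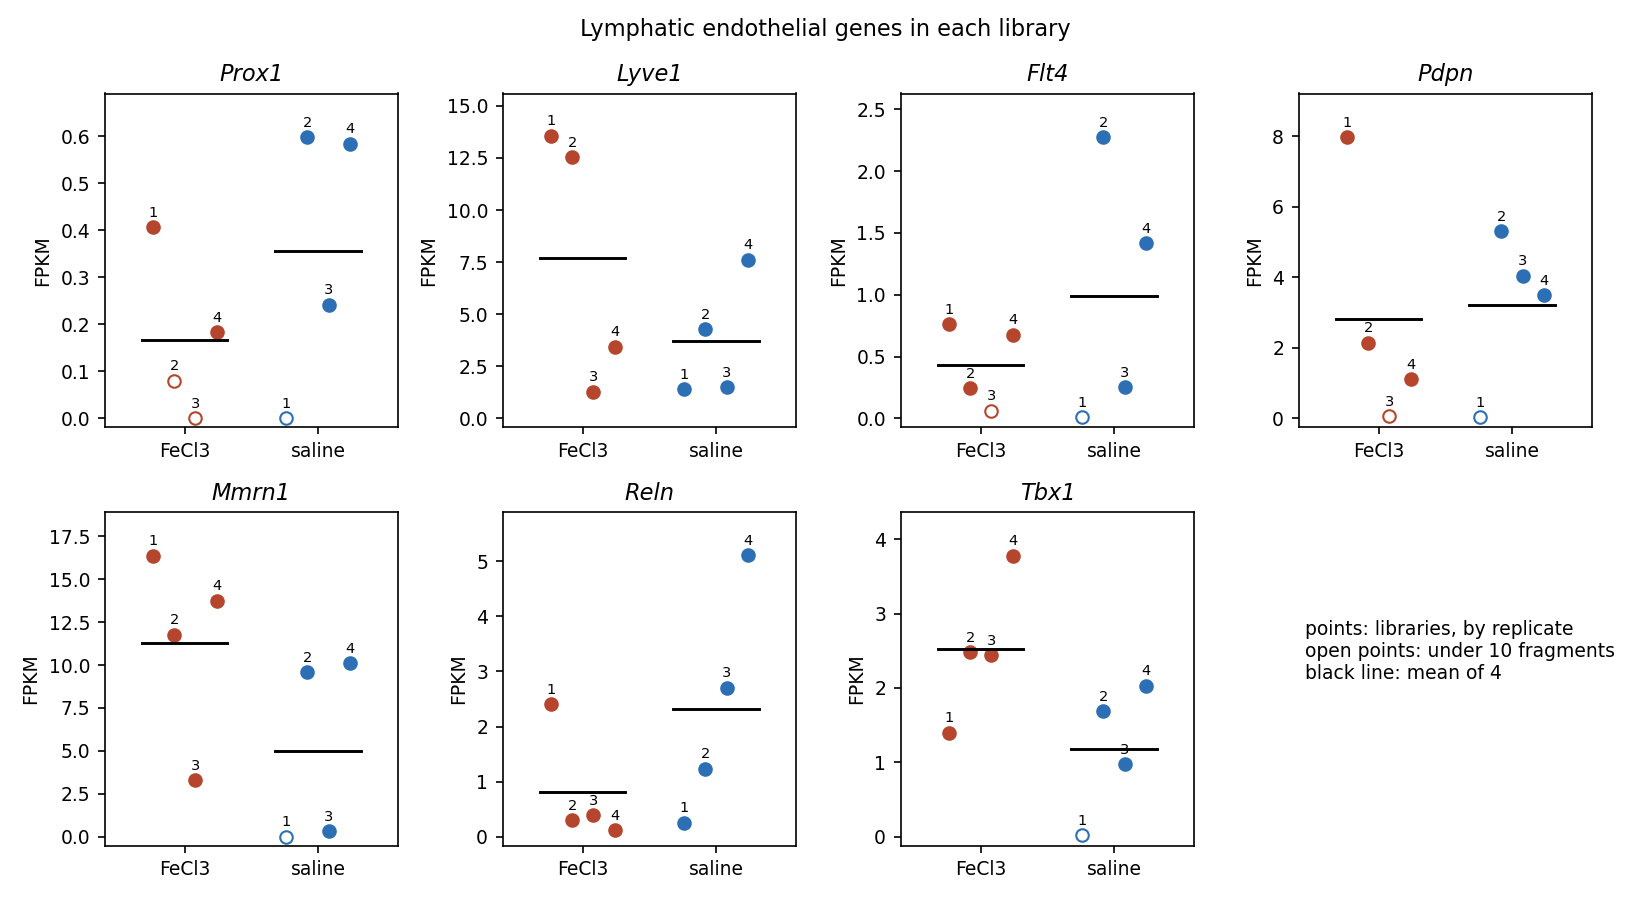
FPKM of the 7 lymphatic marker genes (vertical axis, linear, with its own range in each panel) for the 4 FeCl3 and 4 saline samples, 1 point per library, labelled by replicate; open points have under 10 fragments and the black line is the mean. The groups overlap in every panel, and Mmrn1 in saline runs from 0.0139 to 10.1 FPKM.

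Of the 7 genes, 5 (Lyve1, Pdpn, Mmrn1, Reln and Tbx1) reached 1 FPKM in at least 4 of 8 libraries and entered the limma test on log2(FPKM + 1), and 2 (Prox1 and Flt4) did not. Those 2 are given from the same fit without that filter. At an adjusted p under 0.05 limma called 0 of the 5, beside 0% of the 11921 genes tested, and limma voom on recovered fragments also called 0 of all genes at that threshold. At an unadjusted p under 0.05 it gave 0 of the 5, beside 4.42% of all tested genes that were higher and 12.2% that were lower after FeCl3. Groups that did not overlap were found for 0 of the 7, beside 1.06% higher and 8.75% lower among the genes tested. Over all 18090 genes without the filter, to which Prox1 and Flt4 belong, the shares with an unadjusted p under 0.05 were 3.44% higher and 9.18% lower, and the others were 0.962% higher and 6.3% lower without overlap, and 32.2% with a log2 fold change above 0. The median log2 fold change of the 5 was 0.72, beside -0.25 over all genes tested, and 3 of the 5 were above 0, beside 29.8% of all. Over all 7 genes the median was -0.20, beside -0.13 over all genes of the fit without the filter. With a haemoglobin covariate, the log2 of summed haemoglobin FPKM, the median of the 5 was -0.051, with 2 of the 5 above 0. That covariate ran closely with the groups: it was high in all FeCl3 libraries and low in every saline library but replicate 4. A fit with it therefore leans on saline replicate 4. It left 120 genes at an unadjusted limma p under 0.05, beside 1981 in the main fit. The direction of the median of all genes moved with the scaling: it was -0.90 on TPM and 0.01 with haemoglobin genes left out of the total. None of the 7 genes turned direction under those scalings.

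The libraries differed in makeup in ways that ran partly with the groups. Each held 24304434 to 30283292 fragments. Haemoglobin genes took 16.4% to 34.1% of fragments after FeCl3, 1.30% to 1.63% in saline replicates 1 to 3 and 16.5% in saline replicate 4. The 16 smooth muscle markers, which mark the labelled tissue, were present in all libraries, with summed FPKM from 4488 to 13111 after FeCl3 and from 6401 to 30942 after saline. Saline replicate 1 held the highest smooth muscle sum and the lowest sum of blood endothelium (73.6, beside 214 to 622 in the other libraries). The part of these differences in the results below was not tested.

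Prox1 encodes the homeodomain factor that gives lymphatic endothelium its identity, and it was scarce in every library. After FeCl3 it measured 0.406, 0.0796, 0 and 0.183 FPKM in replicates 1 to 4, from 44, 9, 0 and 20 fragments. After saline it measured 0, 0.598, 0.242 and 0.584 FPKM, from 0, 60, 30 and 61 fragments. It was under 1 FPKM in all 8 libraries, and FeCl3 replicate 3 and saline replicate 1 had no fragment, which allows up to 0.0282 and 0.0240 FPKM. The 95% exact Poisson interval in saline replicate 2 was 0.456 to 0.770 FPKM, so the gap between that library and the lowest ones was far above counting error, which is all such intervals and limits cover. Means were 0.167 ± 0.176 FPKM with FeCl3 and 0.356 ± 0.289 with saline (SD, n = 4 each). The log2 fold change was -0.20 ± 0.17 (SE), with a limma adjusted p of 0.654. Its 95% interval was -0.60 to 0.20, and the added 1 FPKM makes changes at such low levels look smaller than they are.

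Tbx1, a T-box factor needed for lymphatic growth and for development of the heart outflow tract, was the member with the smallest unadjusted p. Its FeCl3 values were 1.398, 2.48, 2.44 and 3.78 FPKM, and its saline values were 0.0202, 1.69, 0.977 and 2.03 FPKM. FeCl3 replicates 2 to 4 lay above all 4 saline libraries, and FeCl3 replicate 1 lay below saline replicates 2 and 4. The means were 2.52 ± 0.975 and 1.18 ± 0.887 FPKM (SD, n = 4 each). The log2 fold change was 0.77 ± 0.38 (SE; 95% interval -0.10 to 1.63), with an unadjusted limma p of 0.0749 and an adjusted p of 0.333. It was 0.44 without saline replicate 1 and 0.24 with the haemoglobin covariate. The brown adipocyte list, which holds Tbx1 itself, had its highest sum in saline replicate 2 (8076 FPKM, beside 44.2 to 319 in the other 7 libraries), where Tbx1 was the fifth highest of 8.

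The list of lymphatic transcription factors, which includes Prox1 and Tbx1, was mixed in direction. Of 15 listed, 14 (Tbx1 among them) were tested and 0 were called by limma. The split was 7 higher and 7 lower, with a median log2 fold change of 0.02, and it was 4 higher and 10 lower on TPM, with 1 called (Nr2f2), and 10 higher and 4 lower with haemoglobin genes left out. Sox18, which turns on Prox1 in the embryo, measured 16.1, 6.41, 7.86 and 7.10 FPKM after FeCl3 and 0.163, 29.5, 3.06 and 14.2 after saline. The saline values enclosed all the FeCl3 values, and the log2 fold change was 0.51 ± 0.91 (SE; limma adjusted p = 0.787), or -0.34 without saline replicate 1. Nr2f2, a nuclear receptor of venous and lymphatic endothelium that is also made by stromal cells, measured 14.6, 5.91, 4.82 and 5.15 FPKM after FeCl3 and 9.12, 13.6, 7.87 and 15.4 after saline. FeCl3 replicate 1 alone reached the saline range, and the log2 fold change was -0.62 ± 0.37 (SE; limma adjusted p = 0.404). It was -1.33 on TPM (adjusted p = 0.0417) and -0.35 with haemoglobin genes left out of the total (adjusted p = 0.778). Of the 14 tested, 1 had an unadjusted limma p under 0.05, and it was higher, beside 4.42% of all tested genes. This was Klf2, a flow-induced endothelial factor also made by lymphocytes. It measured 102, 34.0, 84.5 and 135 FPKM after FeCl3 and 30.4, 61.3, 24.2 and 36.5 after saline (log2 fold change 1.12 ± 0.45, SE; limma adjusted p = 0.279), or a log2 fold change of 0.40 on TPM. The summed lymph node cell markers, which include T and B cell genes, were 168, 76.2, 180 and 567 FPKM after FeCl3 and 7.84, 26.7, 14.8 and 120 after saline, and their part in the Klf2 values was not tested.

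Flt4 is the receptor for Vegfc and Vegfd. It measured 0.761, 0.243, 0.0623 and 0.675 FPKM after FeCl3 and 0.00758, 2.28, 0.252 and 1.41 after saline. The saline group held both the lowest value, 1 fragment in replicate 1, and the highest, 241 fragments in replicate 2. The means were 0.435 ± 0.336 and 0.987 ± 1.06 FPKM (SD, n = 4 each), and the log2 fold change was -0.34 ± 0.39 (SE; 95% interval -1.24 to 0.56, limma adjusted p = 0.709). Flt4 and the blood endothelium markers had the same libraries at both ends. Saline replicate 2 had the highest Flt4 and the highest marker sum (622 FPKM), and saline replicate 1 the lowest of both (73.6 FPKM). The summed white adipocyte markers had these ends too, at 17192.5 and 39.8 FPKM, so the match was not particular to blood endothelium. Set against the mean of the 23 genes of the blood endothelium list in the same library, Flt4 ranged over 2.09 log2 units. Its level alone ranged over 4.46 with the same pseudocount of 0.1, which is above the 0.00758 FPKM of saline replicate 1.

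Of 12 genes of the Flt4 axis (ligands, receptors, proteases and matrix partners) 8 were tested and 0 were called. All 8 were below 0, with a median of -0.86 beside -0.25 for all genes tested, of which 29.8% were above 0. On TPM 3 of the 8 were called lower, beside 27% of all 11921 genes, so a call on TPM is common to many genes. With quantile normalization, median-of-ratios scaling, haemoglobin genes omitted or the haemoglobin covariate, and without saline replicate 1, 1 of the 8, Vegfc, was above 0. Vegfc measured 4.69, 8.13, 5.92 and 7.53 FPKM after FeCl3 and 17.1, 4.51, 6.12 and 5.69 after saline, so that saline replicate 1 alone stood above the others. Its log2 fold change was -0.16 ± 0.38 (SE; limma adjusted p = 0.846), and it was 0.22 without that library. Vegfd, the second Flt4 ligand, was below the filter, at 2.29, 0.871, 0.365 and 0.341 FPKM after FeCl3 and 0.0119, 2.39, 0.181 and 1.17 after saline.

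Svep1, a matrix protein needed for lymphatic valve and network formation, was the 1 gene of the axis whose groups did not overlap. That is 1 of the 8 tested, beside 8.75% of all tested genes that were lower without overlap. Svep1 measured 1.88, 2.75, 2.01 and 2.08 FPKM after FeCl3 and 15.5, 4.54, 3.09 and 4.74 after saline. The log2 fold change was -1.11 ± 0.41 (SE), with a limma adjusted p of 0.260. It was -1.80 on TPM (adjusted p = 0.0408) and -0.68 without saline replicate 1 (adjusted p = 0.270). Nrp2, the Flt4 co-receptor, measured 7.10, 2.28, 0.591 and 1.05 FPKM after FeCl3 and 1.33, 8.92, 9.88 and 12.3 after saline. Saline replicates 2 to 4 were above all FeCl3 libraries, and saline replicate 1 lay among the lower FeCl3 values (log2 fold change -1.32 ± 0.66, SE; limma adjusted p = 0.342).

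Lyve1, a hyaluronan receptor on lymphatic capillaries and on a class of perivascular macrophages, was among the more abundant members. It measured 13.6, 12.5, 1.29 and 3.43 FPKM after FeCl3 and 1.396, 4.28, 1.48 and 7.62 after saline. FeCl3 replicates 1 and 2 were above all other libraries, and FeCl3 replicate 3 was the lowest of the 8. The means were 7.70 ± 6.25 and 3.69 ± 2.94 FPKM (SD, n = 4 each). The log2 fold change was 0.72 ± 0.68 (SE; 95% interval -0.81 to 2.26, limma adjusted p = 0.594), and it was -0.051 with the haemoglobin covariate. The resident macrophage markers had summed FPKM of 281, 225, 82.3 and 134 after FeCl3 and 131, 79.0, 48.7 and 177 after saline. Timd4 alone gave 127 FPKM of the sum in saline replicate 1, where Csf1r was at 0.112 and Folr2 and Cd68 at 0. It was the 1 tested gene of that list with a log2 fold change below 0, beside 12 above. The 3 libraries with the most Lyve1 (FeCl3 replicates 1 and 2 and saline replicate 4) were also the 3 highest for that sum. They were the 3 highest for the summed fibroblast markers too, at 4173, 6512 and 5731 FPKM, beside at most 2735 in the other libraries. The match was therefore not particular to macrophage markers, and the part of either list in the Lyve1 values was not tested.

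Among all tested genes, the library profile closest to that of Lyve1 was that of Islr, with a root mean square difference of 0.20 on the centred log2(FPKM + 1) scale over 8 libraries, beside 1.098 for the median gene. Mrc1, the macrophage mannose receptor, which is also made by lymphatic endothelium, came next at 0.22, and Olfml3 followed at 0.26. Mrc1 measured 8.72, 7.59, 0.527 and 2.46 FPKM after FeCl3 and 0.170, 2.12, 0.560 and 6.18 after saline, with the same 3 libraries at the top as Lyve1. Of 14 genes of hyaluronan synthesis, breakdown and binding, 7 were tested and 0 were called, 2 above and 5 below 0, with a median of -0.35 (on TPM 1 above and 6 below 0, with 2 called lower, near the 27% of all genes). Hyal1, a lysosomal hyaluronidase, was the 1 gene of that list with groups that did not overlap: 3.06, 6.14, 11.3 and 12.4 FPKM after FeCl3 and 20.02, 14.9, 20.6 and 17.6 after saline (log2 fold change -1.20 ± 0.38, SE; limma adjusted p = 0.248, 0.0408 on TPM). That is 1 of the 7 tested, beside 8.75% of all tested genes that were lower without overlap.

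Pdpn is the surface mucin podoplanin, the ligand of the platelet receptor CLEC-2 that keeps blood and lymph apart. It measured 7.97, 2.14, 0.0631 and 1.103 FPKM after FeCl3 and 0.0358, 5.31, 4.04 and 3.49 after saline. Saline replicate 1, with 2 fragments, and FeCl3 replicate 3, with 3 fragments, were more than an order of magnitude below the other 6 libraries, and FeCl3 replicate 1 was the highest. The means were 2.82 ± 3.54 and 3.22 ± 2.25 FPKM (SD, n = 4 each), and the log2 fold change was -0.31 ± 0.75 (SE; 95% interval -2.004 to 1.39, limma adjusted p = 0.848). It was 0.16 without FeCl3 replicate 3. Mesothelium markers had their highest sum in saline replicate 2 (547 FPKM, beside 18.1 to 80.1 in the others), whose Pdpn was the second highest. Most of that sum came from Krt19 (199), Krt8 (118), Krt18 (99.2) and Upk1b (75.9). Msln (7.95) and Upk3b (3.68) were also highest there, but Wt1 (0.006), Calb2 (0.172) and Slpi (0) were not. Fibroblast markers were highest in FeCl3 replicate 2 (6512 FPKM), whose Pdpn was the fifth highest. The nearest profiles were those of Dapk1 (0.26), Rhbdd2 (0.30) and Lrp3 (0.32), beside 1.04 for the median gene.

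Clec1b encodes CLEC-2, the receptor of podoplanin on platelets. It measured 110, 156, 62.8 and 42.3 FPKM after FeCl3 and 2.18, 3.97, 3.74 and 122 after saline. Saline replicate 4 was the second highest of the 8, and saline replicates 1 to 3 were more than 10-fold below every FeCl3 library. The log2 fold change was 3.09 ± 1.08 (SE; limma adjusted p = 0.258). Without saline replicate 4 it was 4.30, with an adjusted p of 0.009996, and with the haemoglobin covariate it was -0.78 (adjusted p = 0.9998). The summed platelet markers, which include Clec1b, were also lowest in saline replicates 1 to 3. They were 1290, 2774, 1497 and 1066 FPKM after FeCl3 and 40.7, 54.7, 142 and 1883 after saline. All 13 podoplanin partner genes were tested and 0 were called, with 8 above and 5 below 0 and a median of 0.14. On TPM the split was 6 above and 7 below 0 with a median of -0.09, and 3 of the 13 were called lower, near the 27% of all genes. The median was 1.92 with limma voom on recovered fragments, with the same count above and below 0, and with the haemoglobin covariate it was -0.28, with 4 above and 9 below 0. Without saline replicate 4, limma called 2 partners higher, Clec1b and Btk (adjusted p = 0.0307), beside 1.26% of all genes. Partners with an unadjusted limma p under 0.05 in the main fit were Clec1b, Syk, Lcp2, Btk and Vav1, all above 0, and Rdx below 0. The first 5 are all signalling genes of platelets and leukocytes. That is 5 of 13 higher, beside 4.42% of all tested genes, and 1 of 13 lower, beside 12.2%. Without overlap 1 of 13 was lower, beside 8.75% of all tested genes. Rdx, a linker of membrane proteins to actin, was the 1 partner whose groups did not overlap, at 14.7, 12.4, 14.4 and 18.1 FPKM after FeCl3 and 24.2, 27.0, 24.5 and 23.3 after saline (log2 fold change -0.71 ± 0.19, SE; limma adjusted p = 0.245). It was -1.43 on TPM (adjusted p = 0.0408) and -0.41 with haemoglobin genes left out of the total (adjusted p = 0.423).

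Mmrn1, multimerin 1, is a large secreted glycoprotein of lymphatic endothelium and of platelet granules. On the log2(FPKM + 1) scale it had the largest fold change of the 7 genes, while by the ratio of group means Reln differed more. It measured 16.4, 11.8, 3.30 and 13.8 FPKM after FeCl3 and 0.0139, 9.57, 0.315 and 10.1 after saline. The saline group was split, with replicates 2 and 4 near the FeCl3 values and replicates 1 and 3, from 2 and 45 fragments, far below all FeCl3 libraries. The means were 11.3 ± 5.65 and 5.00 ± 5.59 FPKM (SD, n = 4 each). The log2 fold change was 1.62 ± 0.88 (SE; 95% interval -0.38 to 3.62), with a limma adjusted p of 0.371. It was 1.02 when saline replicate 1 was left out, 2.17 when saline replicate 4 was, and 0.27 with the haemoglobin covariate.

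Mmrn1 and the platelet markers shared part of their order. Saline replicates 1 and 3, the lowest for Mmrn1, had platelet sums of 40.7 and 142 FPKM, beside 1066 or more in the FeCl3 libraries. In contrast, saline replicate 2 had 9.57 FPKM of Mmrn1 with a platelet sum of 54.7, while FeCl3 replicate 3 had 3.30 with a platelet sum of 1497. The part of platelets in the Mmrn1 values was not tested. Ccl21, a chemokine of lymphatic endothelium and lymph nodes that guides dendritic and T cells, was listed at 0 in the 2 libraries with the least Mmrn1. It measured 200, 140, 7.73 and 13.5 FPKM after FeCl3 and 0, 59.1, 0 and 104 after saline, where no fragment in saline replicates 1 and 3 allows up to 0.118 and 0.119 FPKM. Its log2 fold change was 2.29 ± 1.80 (SE; limma adjusted p = 0.517) and -0.81 with the haemoglobin covariate. The lymph node cell sums of the libraries are given above, beside Klf2. Prox1 had 30 fragments in saline replicate 3, where Mmrn1 was at 0.315 FPKM, and 0 in FeCl3 replicate 3, where Mmrn1 was at 3.30. Set against blood endothelium in the same library, the log2 ratio of Mmrn1 was 0.34, 0.07, -0.90 and 0.27 after FeCl3 and -3.12, -1.25, -3.91 and -0.70 after saline. The groups overlapped in this ratio too, since FeCl3 replicate 3 fell between saline replicates 2 and 4. Profiles closest to Mmrn1 were those of Ifitm1 (0.43), Cmtm7 (0.44) and Naaa (0.45), beside 1.54 for the median gene.

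Reln, reelin, is a large secreted glycoprotein best known for guiding neurons, which collecting lymphatic vessels also release. It measured 2.40, 0.305, 0.393 and 0.124 FPKM after FeCl3 and 0.258, 1.23, 2.71 and 5.11 after saline. FeCl3 replicate 1 stood apart from the other 3 of its group and reached the saline values, while saline replicate 1 lay among the low FeCl3 libraries. The means were 0.806 ± 1.07 and 2.33 ± 2.11 FPKM (SD, n = 4 each), and the log2 fold change was -0.80 ± 0.53 (SE; 95% interval -2.01 to 0.41, limma adjusted p = 0.455). It was -1.34 on TPM and -2.08 with the haemoglobin covariate (limma adjusted p = 0.0984 and 0.9998), and -0.43 without saline replicate 4. The 4 libraries with the most Reln (saline replicates 4, 3 and 2 and FeCl3 replicate 1) were also the 4 highest for the summed markers of nerve and Schwann cells. That sum was 1865, 258, 406 and 182 FPKM after FeCl3 and 294, 510, 3307 and 2207 after saline. The same 4 libraries were the highest for Pdpn.

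Reelin acts through the receptors Lrp8 and Vldlr and the adaptors Dab1, Crk and Crkl. Of the 9 genes of this list 8 were tested and 0 were called, with 2 above and 6 below 0 and a median of -0.68 (on TPM all 8 below 0, with 4 called lower, beside 27% of all genes). The groups of Crk did not overlap, at 32.3, 21.2, 19.99 and 21.0 FPKM after FeCl3 and 43.4, 57.8, 39.4 and 37.8 after saline (log2 fold change -0.90 ± 0.24, SE; limma adjusted p = 0.245). It was -1.63 on TPM (adjusted p = 0.0408) and -0.59 with haemoglobin genes left out of the total (adjusted p = 0.353). Crk is made by most cells, and 8.75% of all genes tested lay as Crk did, with every FeCl3 value below every saline value. Profiles closest to Reln were those of P2rx7 (0.19), Ctns (0.22) and Gpc1 (0.23), beside 0.88 for the median gene. Profiles closest to Tbx1 were those of Thbd (0.15), Bmx (0.21) and Dctd (0.21), beside 0.79. Thbd encodes thrombomodulin, an endothelial anticoagulant receptor, and measured 23.1, 28.8, 33.0 and 42.6 FPKM after FeCl3 and 9.54, 31.8, 16.6 and 28.003 after saline.

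**Figure D2:**
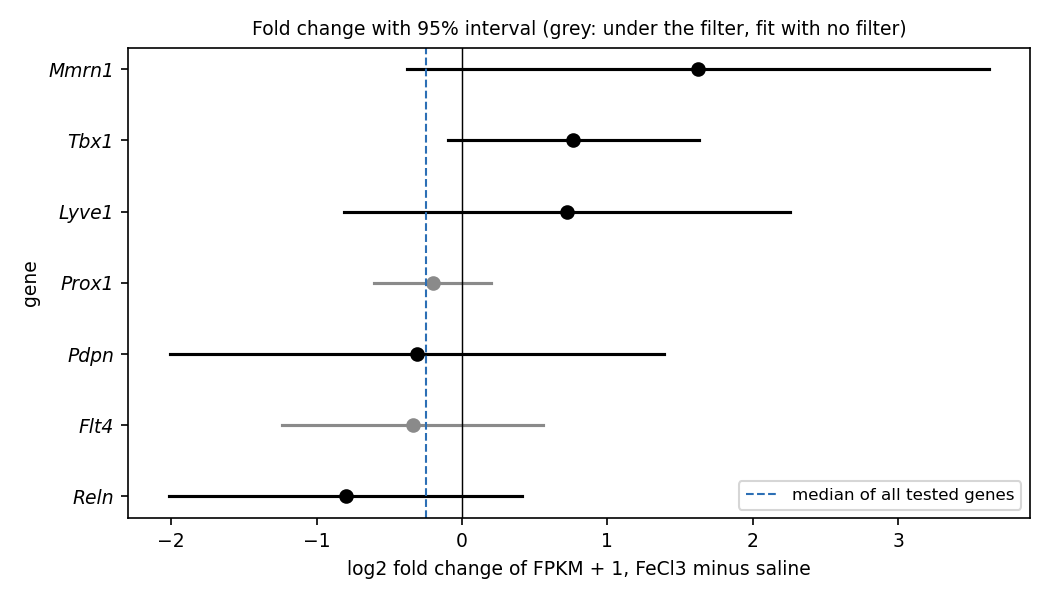
Log2 fold change (FeCl3 minus saline, on log2(FPKM + 1)) of each of the 7 genes by limma, with 95% intervals as bars; grey marks Prox1 and Flt4, fitted without the filter, and the dashed line the median of all tested genes. All 7 intervals include 0; the estimates run from -0.80 for Reln to 1.62 for Mmrn1.

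A further 39 genes of lymphatic surface, junction, flow and guidance function were examined. Of these 31 were tested and 0 were called, with 19 above and 12 below 0 and a median of 0.10, which was -0.38 on TPM, with 12 above and 19 below 0. On TPM 6 of the 31 were called lower, a share under the 27% of all genes. Without saline replicate 1 the median was -0.06. Those with an unadjusted limma p under 0.05 were Ephb4, Plxna1 and Sema3d, all below 0, so 3 of the 31, beside 12.2% of all tested genes. Groups that did not overlap were found for 1 of the 31, beside 8.75% lower and 1.06% higher among all tested genes. Plxna1, the semaphorin receptor used in lymphatic valves, was the 1 gene whose groups did not overlap, at 2.23, 1.79, 2.09 and 2.14 FPKM after FeCl3 and 6.08, 4.01, 5.93 and 3.86 after saline (log2 fold change -0.94 ± 0.21, SE; limma adjusted p = 0.245, 0.0408 on TPM).

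The summed FPKM of the 7 genes was 42.9, 29.5, 7.55 and 23.0 after FeCl3 and 1.73, 25.0, 10.0 and 30.3 after saline. Saline replicate 1 had 5 members under 10 fragments and 1 member, Lyve1, at 1 FPKM or more. FeCl3 replicate 3 had 3 members under 10 fragments, and FeCl3 replicate 2 had 1. Saline replicate 4, the control with the high haemoglobin share, was among the 4 highest libraries for all 7 genes. FeCl3 replicate 1 was so for 6 of the 7. The centred profiles of Prox1 and Flt4 differed least, by a root mean square of 0.33, and those of Mmrn1 and Reln most, by 1.66, a measure that also grows with the size of a gene's own variation.

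**Figure D3:**
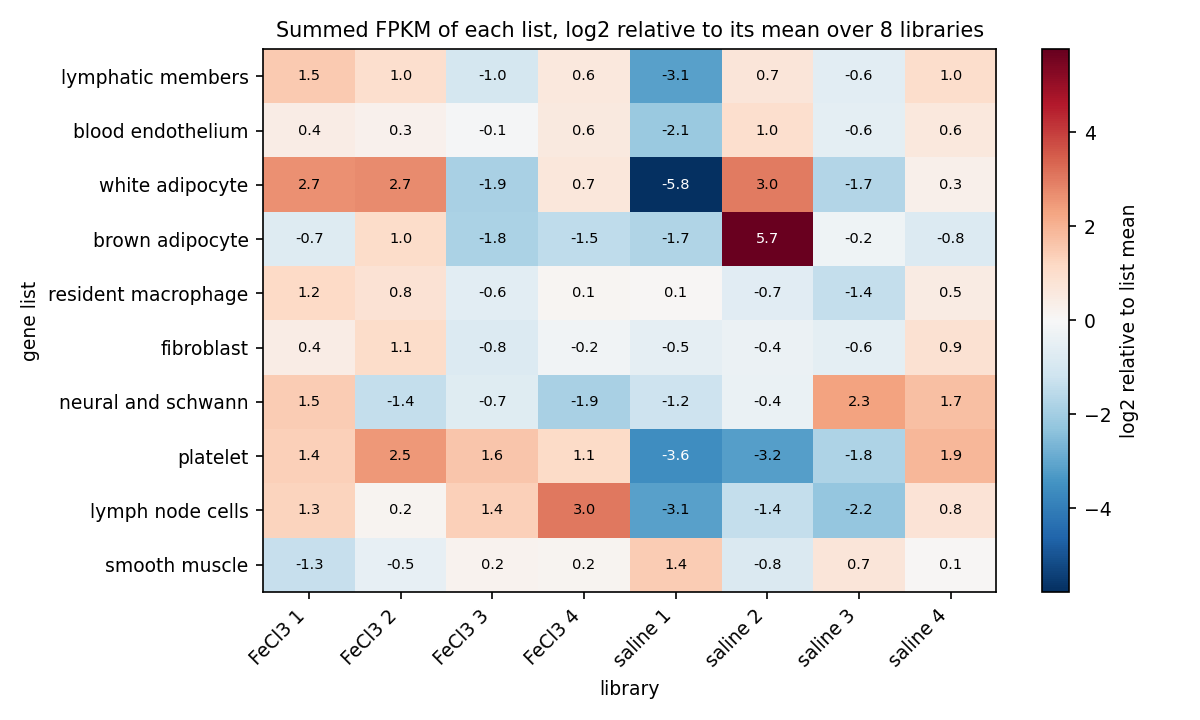
Summed FPKM of the lymphatic genes and of marker lists of other cells of the artery and its surroundings (rows) in each of the 8 libraries (columns), given as log2 relative to the mean log2 of the row. Saline replicate 1 is lowest for the lymphatic, blood endothelium, white adipocyte, platelet and lymph node lists and highest for smooth muscle.

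The ratio of each gene to blood endothelium was taken within a library, so for genes well above the pseudocount of 0.1 the library total largely cancels. Cdh5, Esam, Tie1, Tek and Mmrn2 of the blood endothelium list are also in the list of lymphatic surface genes. The ratio is therefore not one of lymphatic to blood endothelium alone. In this ratio the FeCl3 and saline libraries overlapped for all 7 genes. The spread over libraries was smaller for the ratio than for the level in Flt4 (given above), Tbx1 (2.37 beside 5.01 log2 units) and Mmrn1 (4.25 beside 7.18). It was less so in Pdpn (4.69 beside 5.89), Lyve1 (2.99 beside 3.30) and Prox1 (2.68 beside 2.80). For Reln it was the same (4.53 beside 4.54). In saline replicate 1 the ratios of the 5 genes under 10 fragments were set mostly by the pseudocount of 0.1. Values below it also occurred for Prox1 in FeCl3 replicates 2 and 3 (0.0796 and 0 FPKM). In FeCl3 replicate 3 they occurred for Flt4 and Pdpn (0.0623 and 0.0631 FPKM). The spreads of these genes therefore rest partly on values near that floor, and so do those of Tbx1 and Mmrn1 through saline replicate 1.

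**Figure D4:**
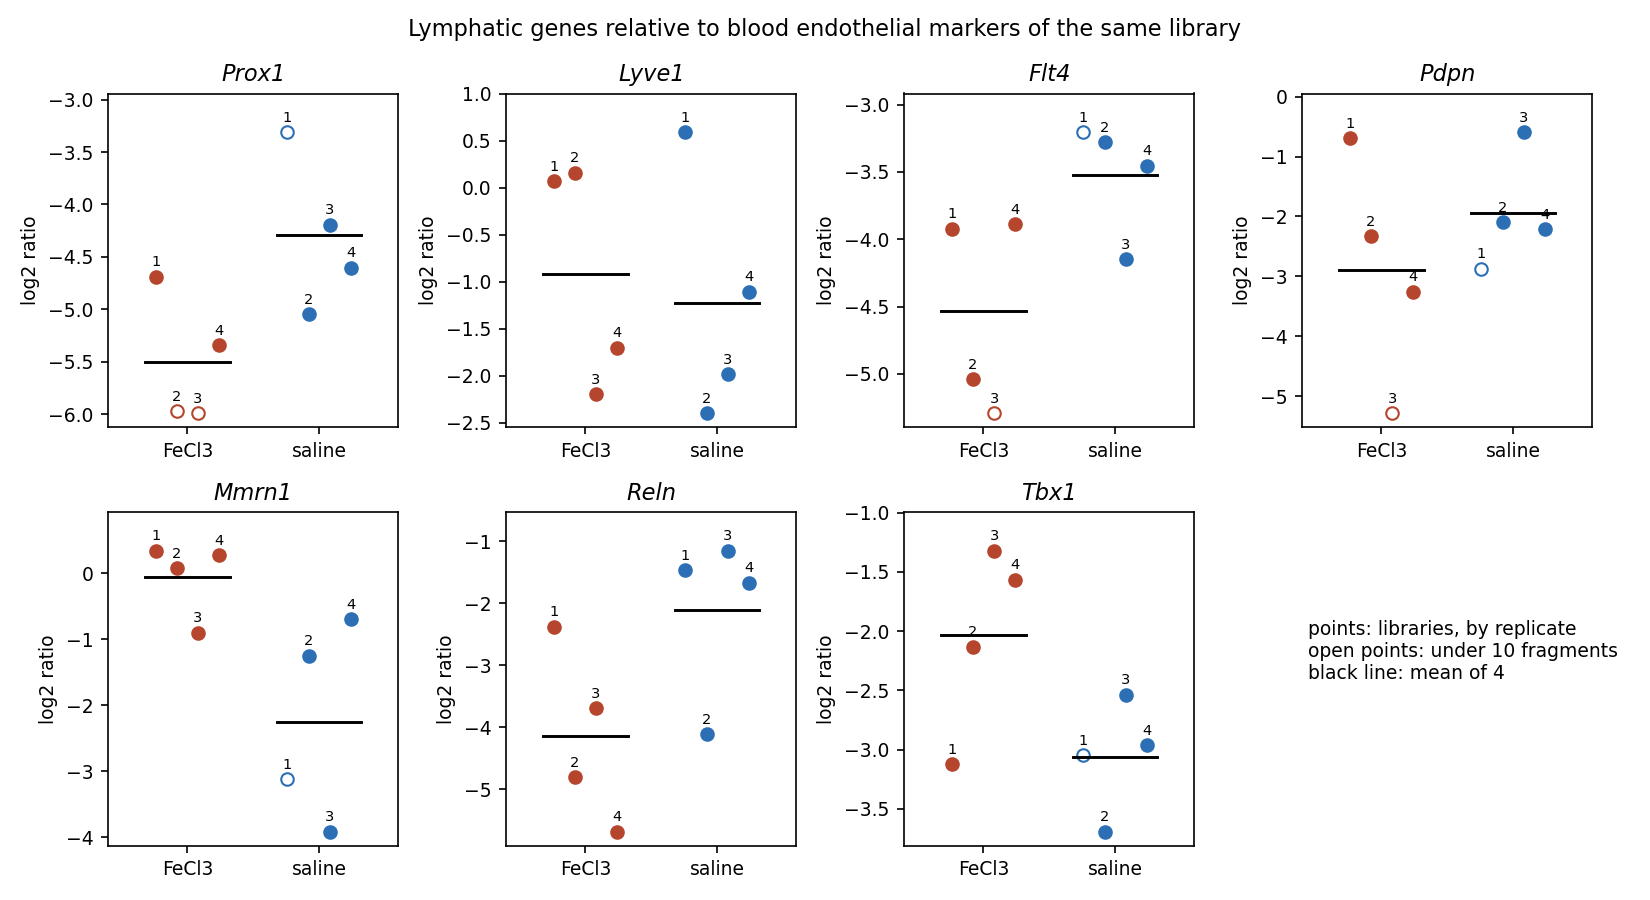
Log2 ratio of each of the 7 genes to the mean of the 23 genes of the blood endothelium list in the same library (FPKM + 0.1), 1 point per library. Open points are genes with under 10 fragments. FeCl3 and saline points overlap for every gene, and for Mmrn1 saline replicates 1 and 3, at -3.12 and -3.91, lie below all 4 FeCl3 points.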

How the data were processed

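RNA of 8 aortas (4 FeCl3, 4 saline) was isolated with the mirVana kit and polyA libraries were made with the VAHTS Universal V6 kit, per the labels' protocols. The deposited values are FPKM, made by the authors. Tools in the submitters' processing notes are fastp, HISAT2 and HTSeq, with the build mRatBN7.2. Versions, annotation, strand setting and gene lengths are not given in the sources used here. Columns were matched to samples by title, with 0 left unmapped, and replicates were numbered in accession order.

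The filter kept genes that reached 1 FPKM in 4 or more of the 8 libraries, and log2(FPKM + 1) was compared by limma 3.58.1 (R 4.3.3) with these settings (trend, two-sided, Benjamini-Hochberg over 11921 genes, threshold 0.05). Scarcer members came from the fit of all 18090 genes. The p-values set the difference between the groups against the spread between samples of a group. Library totals and fragments were recovered from the steps of FPKM values, with 100% of genes whole within a tolerance of 0.02, and their sums reached 99.96% or more of the totals. In no pair of libraries did more than 1.31% of genes have equal fragments. Poisson intervals and limits from 0 fragments (3 fragments) cover counting error only. Figures used matplotlib 3.10.9 in Python 3.11.15, and the fits were tested on simulated data.

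The 7 members and the other gene lists were chosen with earlier results of these data known. Named genes were the 7 members, Vegfc, Vegfd, Clec1b, Ccl21, Sox18, Nr2f2 and Nrp2, genes with the smallest p or highest level in a described list, and the 3 nearest profiles to each tested member. Alternatives covered pseudocounts, filters, scalings, fits, a haemoglobin covariate and left-out libraries.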

Additional observations from a re-analysis of the deposited data

Results flagged for a closer look

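Reln in FeCl3 replicate 1, at 2.40 FPKM, lay far from the other 3 FeCl3 libraries (0.305, 0.393 and 0.124 FPKM). Its gap to the nearest was 0.882 of the range of the group, above Dixon's critical value for 4 samples. It was the 1 case among the 14 gene and group combinations checked, and chance gives about 1 in 20. The nerve and Schwann cell sum was also highest of the FeCl3 group in that library, at 1865 FPKM beside 182 to 406, and its part in the value was not tested.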

How the results depend on the processing

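None of the 7 genes passed the limma threshold under any of 22 alternatives (21 for Prox1 and Flt4), whose adjusted p reached down to 0.0984 (Reln on TPM). Over all genes, limma called 0 as tested, 3288 on TPM (65 higher, 3223 lower), 51 without saline replicates 1 and 4, and 0 to 160 with 1 library left out, the 160 without saline replicate 4 (150 higher, 10 lower). The direction of Prox1, Mmrn1, Reln and Tbx1 was the same under all alternatives. The haemoglobin covariate ran closely with the groups. With it the log2 fold change turned to -0.051 for Lyve1, 0.20 for Vegfc, -0.60 for Sox18, -0.81 for Ccl21 and -0.78 for Clec1b. Flt4 turned to 0.085 with voom and Pdpn to 0.16 without FeCl3 replicate 3. Vegfc turned to 0.032 with median-of-ratios scaling, 0.13 with quantile normalization, 0.12 with haemoglobin genes left out of the total, 0.22 without saline replicate 1 and 0.25 without saline replicates 1 and 4. Sox18 turned to -0.34 and -0.19 in those last 2 cases. The cause was not tested. Leaving out 1 library moved the log2 fold change from 0.35 to 1.24 for Lyve1, from 1.02 to 2.17 for Mmrn1, from 0.44 to 0.96 for Tbx1, from -1.19 to -0.43 for Reln, from -0.89 to 0.16 for Pdpn, from -0.36 to 0.22 for Vegfc and from -0.34 to 1.23 for Sox18. No paired analysis was possible because the sample titles of the groups share fewer than 2 numbers (1, in FeCl3 replicate 3 and saline replicate 4). A planned edgeR fit was not run, since the values are FPKM. Prox1 had no fragment in 2 libraries and Flt4 had 1 fragment in saline replicate 1.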
